A study of Mus musculus with 10 samples.

Results

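Translation initiation and elongation factors are the proteins that bring an mRNA, the initiator tRNA and the ribosomal subunits together and then move the ribosome along the coding sequence. Their genes were taken from the deposited count table as all mouse symbols that begin with Eif1 to Eif6 or with Eef1 or Eef2, leaving out Eif2s3y, names ending in -ps (pseudogenes) and Gm names. Of 68 such genes, 64 had at least 10 counts in 5 or more of the 10 libraries, out of 56691 genes in the table, and each of the 64 reached 10 counts in every library. Left out by the count rule were Eef1akmt3, Eif4ebp3, Eif2c5 and Eif4e1b, which had at most 20 counts in any library. Expression was not used to choose the members beyond that minimum.

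The libraries hold ribosome-bound RNA from the ventral tegmental area of male C57BL/6 mice labelled wild type, 5 without restraint (controls) and 5 after 30 min of acute restraint, during which movement is prevented as a stressor. Dopaminergic neurons of all animals expressed NBL10-HA, a tagged construct used to pull down their ribosomes. The labels used here give neither the promoter that drove the construct, the age of the mice, nor whether a library is 1 animal or a pool, so p-values measure the spread between these libraries. The comparison addressed which signalling pathways differ in these neurons after restraint.

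Totals ran from 56082358 to 86584968 counts per library. Levels are given as CPM, a gene's count scaled to the library's total after TMM normalization. The dopamine neuron markers Th, the tyrosine hydroxylase gene (411 ± 78.6 CPM in controls, SD, n = 5), and Slc6a3, the dopamine transporter gene (232 ± 49.2 CPM), were present. Markers of other cells were present too, with Gfap of astrocytes at 1919 ± 121 CPM and Gad1 of GABA neurons at 549 ± 70.2 CPM in controls, while the 5 microglia markers summed to between 8.54 and 14.5 CPM per control library. The levels below are those of ribosome-bound RNA in this mixture. In it, fewer cells of a type, less RNA per cell and less of that RNA on ribosomes cannot be told apart. On the first principal component restraint 1 scored 92.1 and the remaining 9 libraries between -19.2 and 4.08. Without it, 7 of the factor genes described below were lower and 1 higher at an unadjusted p under 0.05, against 8 and 1 with all libraries. The shares of all genes in that fit are not given here, so these counts stand without them.

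Some measures moved with the groups. Gfap was higher in each restraint library (2125 to 2799.6 CPM) than in any control (1769.7 to 2077 CPM; adjusted p = 0.118 with edgeR and 0.0147 with DESeq2), while the summed 6 astrocyte markers overlapped (3570 to 4119 CPM in controls, 4065 to 5127 CPM after restraint). The summed 11 dopamine neuron markers overlapped (1869 to 2595 CPM and 2093 to 2895 CPM). At an unadjusted p under 0.05, 5 of the 11 were higher, against 5.64% of all genes tested, and 0 lower, against 6.04%. The median log2 difference of the 11 was 0.21. Among them En1, a transcription factor gene of midbrain dopamine neurons, was at 47.1 to 59.8 CPM after restraint and 30.2 to 44.5 CPM in controls, without overlap (log2 0.57 ± 0.11, SE; adjusted p = 0.0662 with edgeR and 0.000426 with DESeq2). Foxa2, a further such gene, had an adjusted p of 0.144 with edgeR and 0.0177 with DESeq2. Of the 11, Slc6a3 (log2 -0.03) and Ddc (-0.05) were the 2 below 0. At an unadjusted p under 0.05, 3 of 5 scarce endothelial and pericyte markers (median 0.43) were higher too. So were 2 of 5 oligodendrocyte markers (median 0.09) and 1 of 6 astrocyte markers (median 0.20). Of the GABA neuron, glutamate neuron and microglia markers 0 were higher, and no marker of any list was lower. Among counts of 1 to 30, even numbers made up 76.8 to 79.8% in controls and 80.0 to 84.8% after restraint, without overlap, in counts that could include both mates of a read pair. With all counts halved, 0 factor genes passed the adjusted threshold. The part of these measures in the results below was not tested.

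Initiation runs in steps. The initiation factor eIF2 carries the initiator tRNA as its GTP form to the small ribosomal subunit, where eIF1, eIF1A, eIF3 and eIF5 help it to find the start codon, and eIF2B recharges eIF2 afterwards. Kinases that phosphorylate the alpha subunit of eIF2 block this recharging under stress. The mRNA is selected through its cap by eIF4F, made of the cap-binding protein eIF4E, the scaffold eIF4G and the helicase eIF4A, and 4E-BP proteins hold eIF4E back when mTORC1 signalling is low. In elongation, eEF1A delivers aminoacyl-tRNA, the eEF1B complex recharges eEF1A, and eEF2 moves the ribosome on until its kinase eEF2K inactivates it. Neurons adjust these steps in synaptic plasticity, mostly through phosphorylation, which RNA counts do not show.

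No factor gene passed the test after restraint. With edgeR's quasi-likelihood test and p adjusted by Benjamini-Hochberg over 18440 genes, 0 of 64 were lower and 0 higher past 0.05, where 0.0163% of all genes passed as lower, 0.00542% as higher and 0.0217% in either direction. The smallest adjusted p with edgeR was 0.191, for Eif4a3. With DESeq2 the adjusted p was 0.0529 for Eif4a3, 0.0691 for Eif4a1 and 0.0792 for Eif6. DESeq2 (which called 2.44% of 14240 genes, 1.42% as lower and 1.03% as higher), limma-voom, and limma-voom with quality weights also passed 0 of the 64. Where every gene with at least 1 count was kept in the edgeR test, Eif6 passed as lower (log2 -0.40, adjusted p = 0.0446), a setting in which 0.612% of 32529 genes passed as lower and 0.317% as higher. At an unadjusted p under 0.05, 8 of 64 were lower, against 6.04% of all genes tested, and 1 of 64 was higher, against 5.64%. As shares of the 64 these are 12.5% and 1.56%. A negative log2 difference (restraint minus control, given below with its standard error) was found in 40 of the 64, where 50.4% of all genes had one. The median log2 difference was -0.08 over the factor genes and -0.0022 over all genes tested. Restraint 4 bears on these values: without it 5 of 64 were lower at an unadjusted p under 0.05 and the median was -0.05. The share of all genes in the fit without restraint 4 is not given here. Of the 64 genes, 16 share over 20% of their exon bases, or of the 50-base windows of their longest transcript, with another gene, and reads that fit both were not counted. The 16 are Eef1a1, Eef1akmt4, Eef1g, Eef2kmt, Eif1, Eif2s2, Eif2s3x, Eif3d, Eif3e, Eif3h, Eif3j1, Eif3j2, Eif3m, Eif4a1, Eif4a3 and Eif6. The other 48 genes had a median of -0.05, with 4 lower and 1 higher at an unadjusted p under 0.05.

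**Figure D1:**
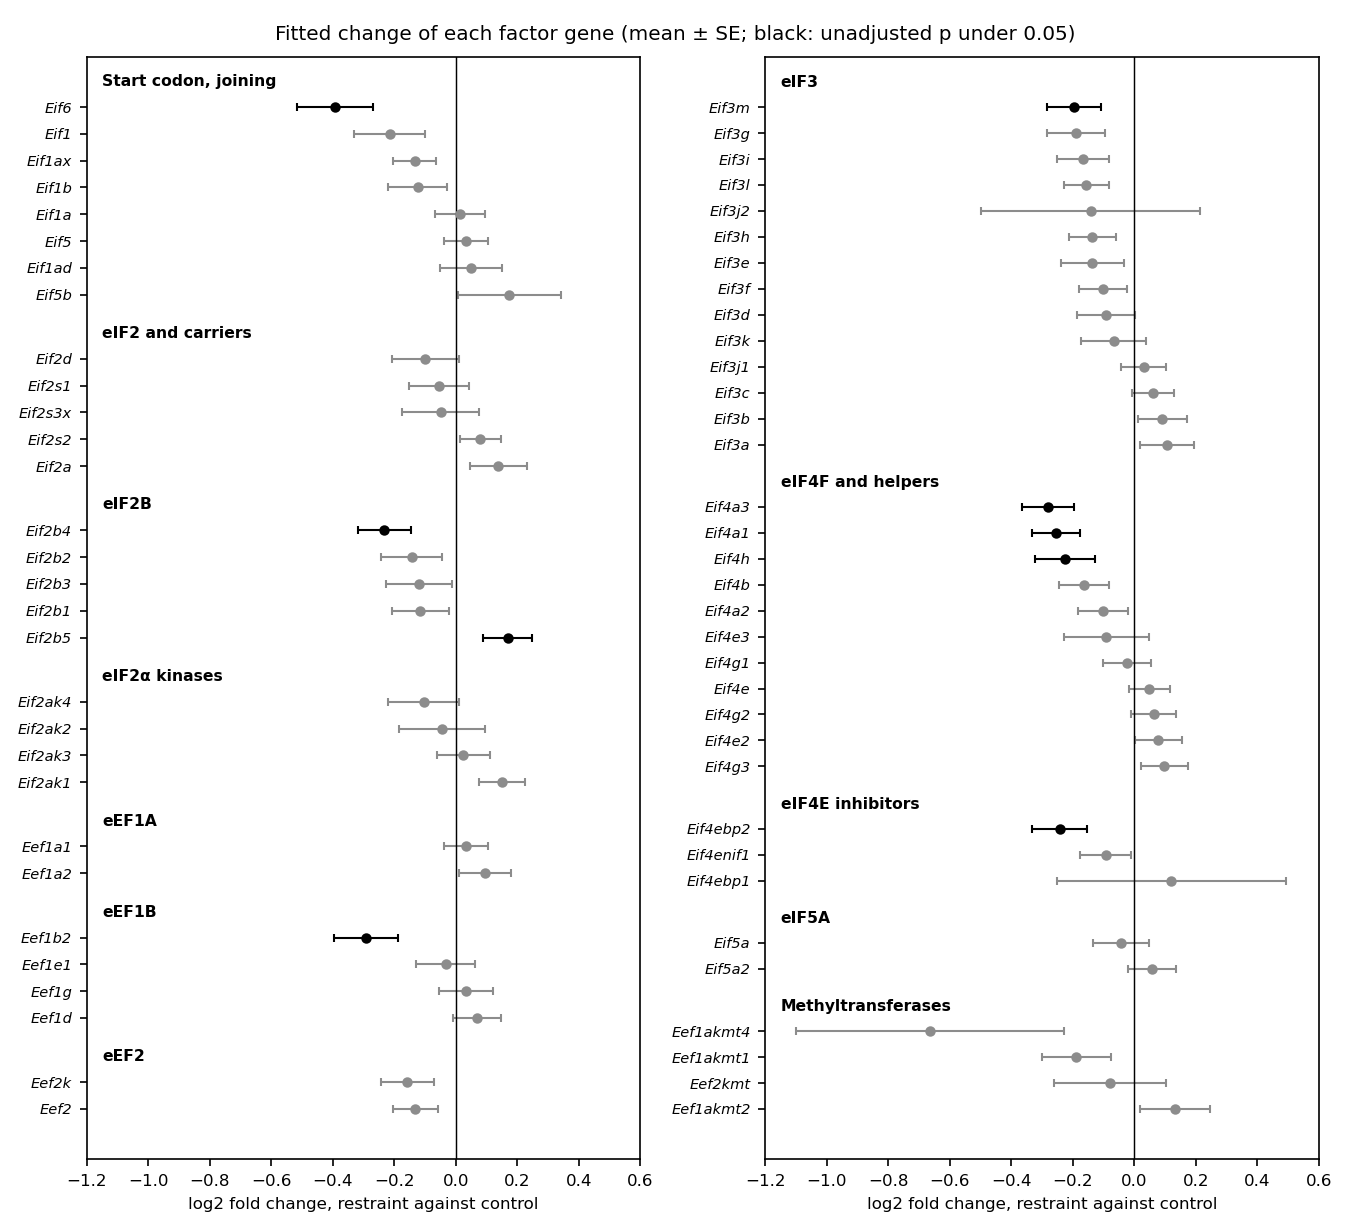
Fitted log2 fold change of each of the 64 factor genes, restraint against control, with its standard error, by complex; black marks an unadjusted p under 0.05. Apart from the scarce Eef1akmt4 at -0.66 the points lie between -0.39 and 0.17, with 8 black points below 0 and 1, Eif2b5, above it.

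The factor genes as a group took 1.34 to 1.38% of all counts in the controls and 1.25 to 1.36% after restraint, so the groups overlapped. Per library, the median log2 deviation of the 64 genes from their control means was -0.04 to 0.01 in controls. After restraint it was -0.06, 0.02, -0.04, -0.13 and -0.02 in replicates 1 to 5. Restraint 4 was thus the lowest, and restraint 2 lay above every control. Cytosolic ribosomal protein genes deviated in the same libraries by -0.29, 0.02, -0.27, -0.54 and -0.13, and in controls by -0.20 to 0.16, so that restraint 2 and 5 lay inside the control range. Restraint 4 also had the steepest slope of log2 CPM on exon length (0.0971 per doubling of length, against -0.071 to 0.0657 in controls). Removing each library's length trend left the median of the factor genes at -0.06, with 13 lower and 1 higher at an unadjusted p under 0.05 and 0 past the adjusted threshold. The shares of all genes at that unadjusted p in this setting are not given here, so the 13 cannot be set against them. The 26 factor genes with under 3000 exon bases had a median log2 difference of -0.12, and the 38 longer ones -0.04. With the length trend removed these medians were -0.08 and -0.04.

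The factor genes differed far more from each other than between the groups. Per kilobase of exon, the control means ran from 0.285 CPM for Eif3j2 to 741 CPM for Eef1a1, with a median of 19.5 CPM. The 3 highest were the elongation factor genes Eef1a1, Eef1a2 (547) and Eef2 (497), followed by Eif1 (238), Eif4a2 (218), Eif1b (174) and Eef1g (149.8). At the low end, besides Eif3j2, stood Eef1akmt4 (0.437), Eif4ebp1 (0.665) and Eef2kmt (1.18). The regulatory kinase genes Eif2ak4 (2.18), Eif2ak3 (3.75) and Eef2k (3.88) lay below the factors that they act on, Eif2s1 (9.67) and Eef2, while the kinase gene Eif2ak1 (13.7) stood above Eif2s1.

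**Figure D2:**
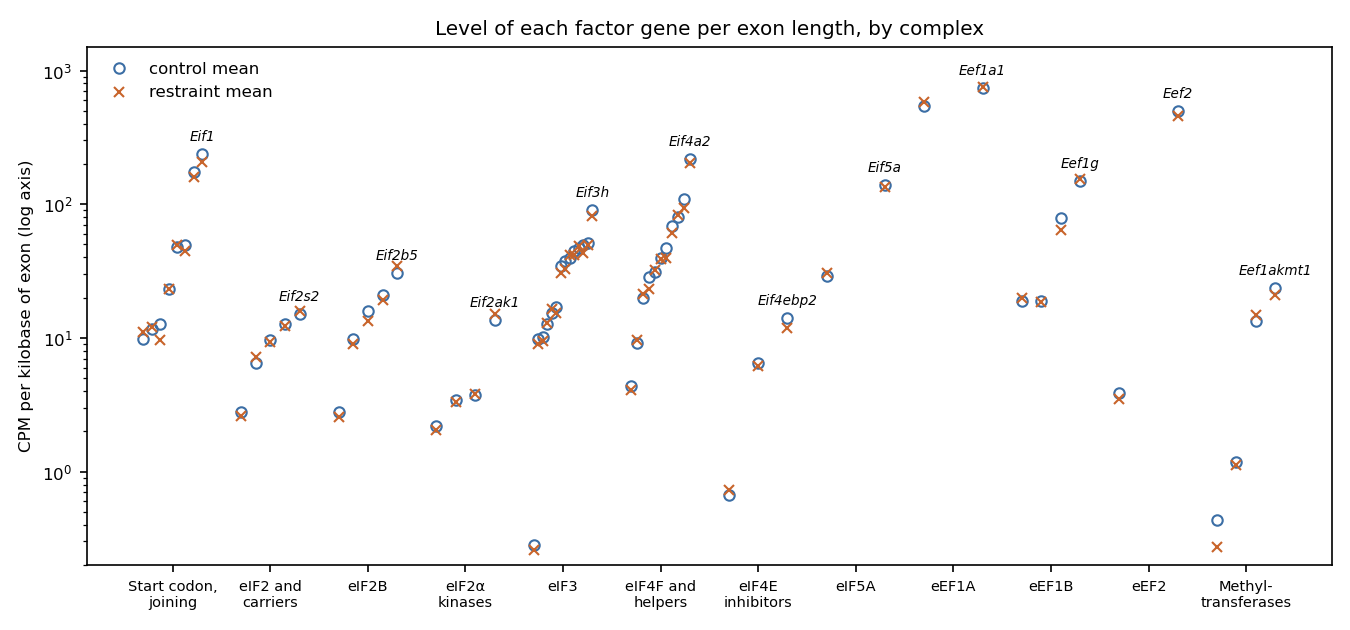
Level of each factor gene per kilobase of exon, on a log axis, by complex; circles are control means and crosses restraint means, and the highest gene of each complex is named. Eef1a1, Eef1a2 and Eef2 stand above all initiation factor genes, and circle and cross nearly coincide for most genes.

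The genes grouped as eIF4F, its helpers and their paralogues held the pair of factor genes whose groups did not overlap. Of this pair, Eif4a3 was grouped here as an eIF4A paralogue rather than as a part of eIF4F. Of the 11 genes, 3 were lower at an unadjusted p under 0.05 (edgeR), against 6.04% of all genes tested, and 0 higher, against 5.64%. The median log2 difference was -0.09. Eif4a3 encodes the eIF4A paralogue of the exon junction complex, which marks spliced mRNA (chromosome 11, 119179189 to 119190915, GRCm39). It had 59.0, 61.5, 65.2, 56.1 and 59.3 CPM in controls 1 to 5 and 54.0, 45.3, 48.6, 45.1 and 54.9 CPM after restraint. Eif4a1, the helicase of eIF4F that unwinds leader sequences (chromosome 11, 69557762 to 69563249), had 217, 209.7, 205, 191 and 199 CPM in controls and 190.5, 162, 149, 179 and 177 CPM after restraint. In both genes every restraint library lay below every control, which is 2 of 64 factor genes, against 1.36% of all genes tested, and 0 of 64 were higher without overlap, against 1.25%. The log2 differences were -0.28 ± 0.08 (SE) for Eif4a3 and -0.25 ± 0.08 for Eif4a1, with adjusted p of 0.191 and 0.207 (edgeR). Both are among the genes with copies: 65.3% of the 50-base windows of Eif4a1 recur in 8 other annotated genes, and 24.4% of those of Eif4a3 in 3, so their levels are uncertain.

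Eif4a2, the other cytoplasmic eIF4A gene, had 1286, 1019.6, 1161, 1249 and 1106 CPM in controls and 1092, 1145, 1058, 956 and 1175 CPM after restraint. These ranges overlapped, and the log2 difference was -0.10 ± 0.08 (adjusted p = 0.684, edgeR). Per exon length, Eif4a2 made up 74.2 ± 2.16% of the 3 eIF4A genes without restraint and 76.3 ± 1.90% with it (SD, n = 5 each). For Eif4a1 the shares were 16.1 ± 1.28% and 14.9 ± 1.61%, and for Eif4a3 9.71 ± 0.972% and 8.78 ± 0.566%. All 3 shares overlapped between the groups, and Eif4a2 was the leading eIF4A gene in every library of either group, as counted. Of the windows of Eif4a1, 65.3% recur in other genes, and of those of Eif4a3 24.4%, against 12.7% for Eif4a2. Reads that fit several genes were not counted, so all 3 shares are uncertain and could be too high for Eif4a2.

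Promoter sequence was read beside these genes, because the 3 eIF4A paralogues differ in level and 2 of them held the smallest p. RefSeq (GRCm38.p6) gave the 250 bases before the start site for 51 of the 64 genes, in 66 promoters. For this, 4 motifs were searched on both strands, and only CACGTG, which reads the same on both, was found in the promoters printed here. CACGTG, the E-box that Myc and its relatives bind, was present in 14 of the 66 promoters (21.2%, 12 genes) and in 6.02% of all 32851 promoters of that length. CCGGAAGT, a motif of ETS factors, was in 5 of 66 (7.58%) and in 2.88% of all. TGACGTCA, the full cyclic AMP response element, and TGATGCAA, an element bound by ATF4, were in 0 of the 66, and in 1.55% and 0.791% of all. Some genes have several promoters in this table, which share their surroundings, and a match is no evidence of binding. The upstream sequences of the eIF4A genes and of the eIF4F genes with an E-box are given from far to near, with capitals marking CACGTG. Eif4a1 (chr11:69672424-69672673, minus strand) holds it 189 bases before the start site, Eif4e (chr3:138527018-138527267, plus strand, the second of its listed promoters) 228 and 64 bases before, Eif4g1 (chr16:20672477-20672726, plus strand) 54 bases before and Eif4h (chr5:134639410-134639659, minus strand) 96 bases before. Eif4a2 (chr16:23107218-23107467, plus strand) and Eif4a3 (chr11:119300044-119300293, minus strand) hold no CACGTG in that window.
Eif4a1: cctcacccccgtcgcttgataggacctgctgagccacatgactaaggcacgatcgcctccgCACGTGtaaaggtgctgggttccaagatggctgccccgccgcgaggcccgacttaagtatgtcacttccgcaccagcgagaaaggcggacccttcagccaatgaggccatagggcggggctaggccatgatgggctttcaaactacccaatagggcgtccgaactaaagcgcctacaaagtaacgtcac
Eif4e: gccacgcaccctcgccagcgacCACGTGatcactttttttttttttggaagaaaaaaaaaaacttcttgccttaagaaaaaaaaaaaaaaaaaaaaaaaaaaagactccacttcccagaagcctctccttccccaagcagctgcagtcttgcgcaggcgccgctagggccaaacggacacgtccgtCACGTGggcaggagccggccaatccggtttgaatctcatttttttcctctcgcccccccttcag
Eif4g1: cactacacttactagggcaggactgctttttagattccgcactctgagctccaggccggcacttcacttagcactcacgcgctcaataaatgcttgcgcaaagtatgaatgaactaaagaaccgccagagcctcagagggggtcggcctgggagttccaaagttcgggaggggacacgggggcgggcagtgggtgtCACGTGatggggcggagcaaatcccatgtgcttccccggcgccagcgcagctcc
Eif4h: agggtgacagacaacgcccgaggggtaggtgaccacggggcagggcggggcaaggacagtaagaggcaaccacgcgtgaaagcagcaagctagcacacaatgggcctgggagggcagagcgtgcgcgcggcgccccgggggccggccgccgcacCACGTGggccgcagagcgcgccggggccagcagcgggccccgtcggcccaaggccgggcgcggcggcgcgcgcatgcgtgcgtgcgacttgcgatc
Eif4a2: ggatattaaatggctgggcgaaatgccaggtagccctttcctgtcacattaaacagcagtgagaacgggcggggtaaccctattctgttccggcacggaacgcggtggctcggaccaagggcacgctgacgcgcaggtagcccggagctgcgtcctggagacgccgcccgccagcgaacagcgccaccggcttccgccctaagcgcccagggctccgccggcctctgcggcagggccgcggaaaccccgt
Eif4a3: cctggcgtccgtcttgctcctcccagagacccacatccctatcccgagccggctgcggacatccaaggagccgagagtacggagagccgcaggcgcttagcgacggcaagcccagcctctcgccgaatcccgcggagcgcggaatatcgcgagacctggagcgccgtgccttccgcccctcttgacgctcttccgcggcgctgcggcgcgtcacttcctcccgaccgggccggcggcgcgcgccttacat

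The values of the eIF4F genes with the E-box had both signs. Eif4h, whose product stimulates the eIF4A helicase (chromosome 5, 134648575 to 134668344), had 583, 559, 583, 686 and 641 CPM in controls and 466, 512, 513, 456 and 664 CPM after restraint. Restraint 5 stood among the controls and the other 4 restraint libraries below all of them. The log2 difference of Eif4h was -0.23 ± 0.10 (adjusted p = 0.379, edgeR). Eif4e, the cap-binding protein gene, had 189.6, 172, 198, 195 and 182 CPM in controls and 198, 189, 187, 194 and 200.5 CPM after restraint, a difference of 0.05 ± 0.07 with overlapping groups. Eif4g1, the main scaffold gene, had 287, 293, 248, 303 and 305 CPM and 316, 268, 279.8, 284 and 266 CPM, which also overlapped (-0.02 ± 0.08).

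Eif4b encodes a further helper of the helicase, and had 350.3, 296, 274, 310.2 and 302 CPM in controls and 289.7, 293, 260.5, 241 and 284 CPM after restraint. All 5 restraint libraries lay below the control median, 2 of them (restraint 3 and 4) below every control (log2 -0.16 ± 0.08, adjusted p = 0.459, edgeR). Eif4g2, whose product, a relative of eIF4G without an eIF4E-binding site, drives cap-independent initiation, had 863, 853, 766, 821 and 746 CPM in controls and 803, 859, 809.7, 810.4 and 950.3 CPM after restraint (0.06 ± 0.07). Per exon length it made up 57.3 ± 2.29% of the 3 eIF4G genes in controls, against 28.3 ± 1.59% for Eif4g1 and 14.4 ± 0.978% for Eif4g3. Eif4g3 (0.10 ± 0.08), Eif4e2 (0.08 ± 0.08) and Eif4e3 (-0.09 ± 0.14) completed the group without passing.

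Among the inhibitors of eIF4E, Eif4ebp2, the 4E-BP gene best known in brain (chromosome 10, 61264270 to 61288440), had 85.3, 96.8, 71.6, 76.5 and 76.4 CPM in controls and 70.8, 71.0, 60.9, 68.4 and 72.6 CPM after restraint. Only restraint 5 lay within the control range, and the other 4 libraries lay below it. The log2 difference was -0.24 ± 0.09, with an adjusted p of 0.290 (edgeR), and without control 2, the highest library, it was -0.17. Eif4ebp1 was scarce, with 1.25, 1.73, 1.81, 1.18 and 1.32 CPM in controls and 2.08, 3.29, 0.655, 0.955 and 0.969 CPM after restraint. Its restraint libraries spread on both sides of the controls (0.12 ± 0.37), and without restraint 2, the highest, the sign turned (-0.33). Per exon length, Eif4ebp2 made up 95.5 ± 1.01% of the pair in controls and 94.5 ± 3.44% after restraint. Eif4enif1, which encodes the shuttling protein that carries eIF4E into the nucleus, stood at 41.6 ± 1.85 CPM without restraint and 39.0 ± 3.33 CPM with it (SD, n = 5 each).

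**Figure D3:**
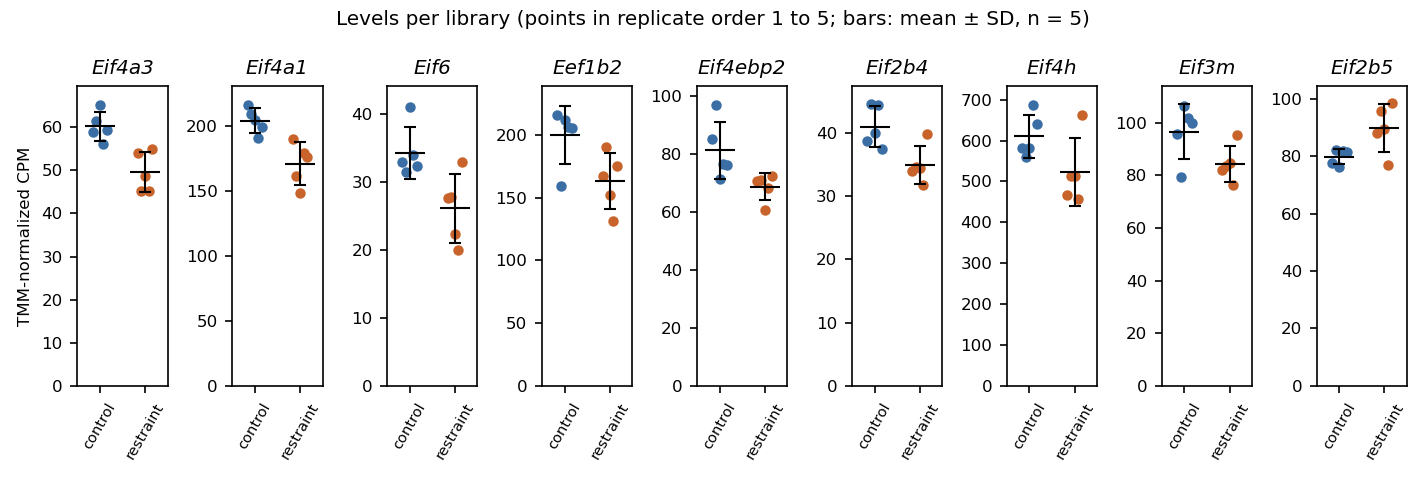
TMM-normalized CPM per library of the 9 factor genes with an unadjusted p under 0.05, in order of p, with points for replicates 1 to 5 and bars for the mean ± SD; each axis starts at 0. The groups are apart only for Eif4a3 and Eif4a1, and for the others 1 or more libraries of a group lie within the range of the other.

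The genes of start codon recognition and subunit joining numbered 8, with a median log2 difference of -0.06. At an unadjusted p under 0.05 (edgeR), 1 was lower, against 6.04% of all genes tested, and 0 higher, against 5.64%. Eif6, whose product keeps the large ribosomal subunit from joining too early and acts in its assembly (chromosome 2, 155661752 to 155668845), had 33.0, 31.5, 41.0, 33.9 and 32.4 CPM in controls and 27.7, 27.8, 22.4, 19.99 and 33.0 CPM after restraint. Restraint 5 alone reached the control range, and restraint 4 was the lowest. Its log2 difference of -0.39 ± 0.12 (adjusted p = 0.216, edgeR) was the most negative of the factor genes above 1 CPM. An antisense gene, Gm16098, covers 28.8% of the exon bases of Eif6, and strands were not told apart in the counts.

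Eif1, which guards the accuracy of start codon choice, had 541, 406, 569.8, 494 and 490.4 CPM in controls and 416, 482, 374, 347 and 537 CPM after restraint. Restraint 3 and 4 lay below all controls and restraint 5 above 3 of them (log2 -0.21 ± 0.12). Eif5, the GTPase-activating partner of eIF2, had 340.3, 319.5, 333, 351 and 294 CPM in controls and 329, 308, 341, 357 and 341 CPM after restraint, with no separation (0.03 ± 0.07). Eif1ax, an eIF1A gene on the X chromosome, stood at 259 ± 16.4 CPM without restraint and 236 ± 8.57 CPM with it (log2 -0.13 ± 0.07), and its autosomal counterpart Eif1a at 96.3 ± 6.16 CPM without restraint and 97.2 ± 8.84 CPM with it (0.01 ± 0.08). Per exon length, Eif1ax made up 68.0 ± 1.81% of the eIF1A pair in controls and 65.9 ± 1.51% after restraint. Eif5b, the subunit-joining GTPase gene, ran from 61.4 CPM in restraint 1 to 139.9 CPM in restraint 3 (0.17 ± 0.17). Eif1b (-0.12 ± 0.10) and Eif1ad (0.05 ± 0.10) did not pass either.

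For eIF2, none of the 5 genes of the factor and of other initiator tRNA carriers reached an unadjusted p under 0.05 (median -0.05). Eif2s1, the alpha subunit that the stress kinases phosphorylate, had 48.2, 44.8, 51.0, 42.6 and 52.8 CPM in controls and 51.9, 44.6, 40.6, 52.8 and 40.8 CPM after restraint. The groups spanned nearly the same range (-0.05 ± 0.10). Eif2s2, the beta subunit, was at 106.0 to 108.0 CPM in the restraint libraries and 95.4 to 106.9 CPM in controls (0.08 ± 0.07). Eif2s3x, the gamma subunit, was at 48.6 ± 8.90 CPM without restraint and 47.0 ± 7.14 CPM with it. Eif2a (0.14 ± 0.09) and Eif2d (-0.10 ± 0.11), which encode other proteins that bring initiator tRNA to the ribosome, did not pass.

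The eIF2B genes, which encode the exchange factor that recharges eIF2, had differences of both signs. Eif2b4, a regulatory subunit (chromosome 5, 31344902 to 31350774), had 38.7, 44.5, 39.9, 44.3 and 37.4 CPM in controls and 34.0, 34.6, 34.3, 31.7 and 39.8 CPM after restraint, with restraint 5 alone inside the control range. Eif2b5, the catalytic subunit (chromosome 16, 20317567 to 20328073), had 77.7, 82.1, 76.4, 81.9 and 81.3 CPM in controls and 88.1, 95.6, 89.6, 77.0 and 98.4 CPM after restraint. Here 4 restraint libraries lay above every control and restraint 4 lay among the lowest controls. The log2 differences were -0.23 ± 0.09 and 0.17 ± 0.08, with adjusted p of 0.293 and 0.420 (edgeR). Whether the difference between the 2 subunits is itself beyond the spread was not tested. The other 3 genes of the complex, Eif2b1 (-0.12 ± 0.09), Eif2b2 (-0.14 ± 0.10) and Eif2b3 (-0.12 ± 0.11), were below 0 and did not pass.

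The kinases of eIF2 alpha sense different stresses, and none of the 4 genes reached an unadjusted p under 0.05. Eif2ak3, the kinase of the endoplasmic reticulum stress response (PERK), had 24.1, 23.4, 21.8, 21.7 and 21.9 CPM in controls and 23.4, 20.7, 23.0, 22.2 and 25.4 CPM after restraint (0.02 ± 0.09). Eif2ak4, the kinase GCN2 that senses uncharged tRNA, had 17.8, 16.5, 15.7, 16.1 and 15.2 CPM and 15.4, 12.01, 13.6, 18.6 and 16.1 CPM (-0.10 ± 0.12). In both genes the restraint libraries reached below and above the controls. Eif2ak1, the heme-regulated kinase, stood at 77.5 ± 4.02 CPM without restraint and 85.9 ± 5.84 CPM with it and was above the control median in 5 of 5 restraint libraries (0.15 ± 0.08, adjusted p = 0.463, edgeR). Per exon length it was the largest of the 4, with 59.4 ± 1.84% of their sum in controls and 62.3 ± 1.16% after restraint, and these shares overlapped. Eif2ak2, the kinase PKR that double-stranded RNA activates, stood at 17.6 ± 4.37 CPM without restraint and 17.0 ± 1.27 CPM with it (-0.05 ± 0.14).

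The eIF3 complex, the largest initiation factor and the bridge between the small subunit and eIF4F, was represented by 14 genes with a median log2 difference of -0.12, 10 of them negative. Of these, 1 gene, Eif3m, was lower at an unadjusted p under 0.05 and 0 were higher. Eif3m (chromosome 2, 104830001 to 104847425) had 95.7, 79.4, 106, 102 and 100.1 CPM in controls and 82.2, 83.4, 84.6, 76.4 and 95.3 CPM after restraint, where the low control 2 made the groups overlap (-0.20 ± 0.09, adjusted p = 0.404, edgeR). Eif3l had 58.3, 61.2, 65.6, 62.2 and 62.1 CPM in controls and 60.1, 55.5, 56.4, 54.6 and 51.2 CPM after restraint, with 4 restraint libraries below all controls (-0.16 ± 0.07). Eif3g, an RNA-binding subunit, had 85.4, 93.2, 107, 96.3 and 109 CPM and 88.6, 102, 80.3, 73.6 and 85.6 CPM, with restraint 3 and 4 below all controls and the other 3 among them (-0.19 ± 0.09). The large scaffold subunit Eif3a had 148, 139, 120.0, 134 and 129.8 CPM in controls and 165, 138, 146, 152 and 121 CPM after restraint (0.11 ± 0.09). Its partners in the core, Eif3b (0.09 ± 0.08) and Eif3c (0.06 ± 0.07), and the loosely bound Eif3j1 (0.03 ± 0.07) were the other genes above 0. Eif3i (-0.17 ± 0.09), Eif3h (-0.14 ± 0.08), Eif3e (-0.14 ± 0.10), Eif3f (-0.10 ± 0.08), Eif3d (-0.09 ± 0.09), Eif3k (-0.07 ± 0.10) and Eif3j2 (-0.14 ± 0.36) were below 0. Per kilobase, the eIF3 genes other than Eif3j2 ran from 9.85 CPM for Eif3e to 90.4 CPM for Eif3h, although the subunits assemble in 1 complex. Over 20% of the windows of Eif3j2 (91.8%), Eif3j1 (54.8%), Eif3m (40.0%), Eif3h (26.2%) and Eif3e (22.0%) recur in other genes. An antisense gene covers 43.3% of the exon bases of Eif3d. The levels of these genes, Eif3m among them, are uncertain.

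The eEF1A genes and Eef2 had the highest levels per kilobase, and no elongation factor gene passed the test. Eef1a1, which encodes the general form of eEF1A, had 1924, 1654, 1760.0, 1832 and 2068 CPM in controls and 1929.8, 1954, 1913, 1731 and 1920.4 CPM after restraint. Eef1a2, the form of mature neurons and muscle, had 1012, 1235, 1026, 1127 and 1301 CPM and 1095, 1172, 1386, 1206 and 1232 CPM. Both genes overlapped between the groups, with log2 differences of 0.03 ± 0.07 and 0.09 ± 0.09. Per exon length, Eef1a2 made up 42.4 ± 3.13% of the eEF1A pair in controls and 43.5 ± 2.49% after restraint. Of the windows of Eef1a1, 60.6% recur in 21 other annotated genes, against 0% for Eef1a2, so the level and share of Eef1a1 are uncertain.

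**Figure D4:**
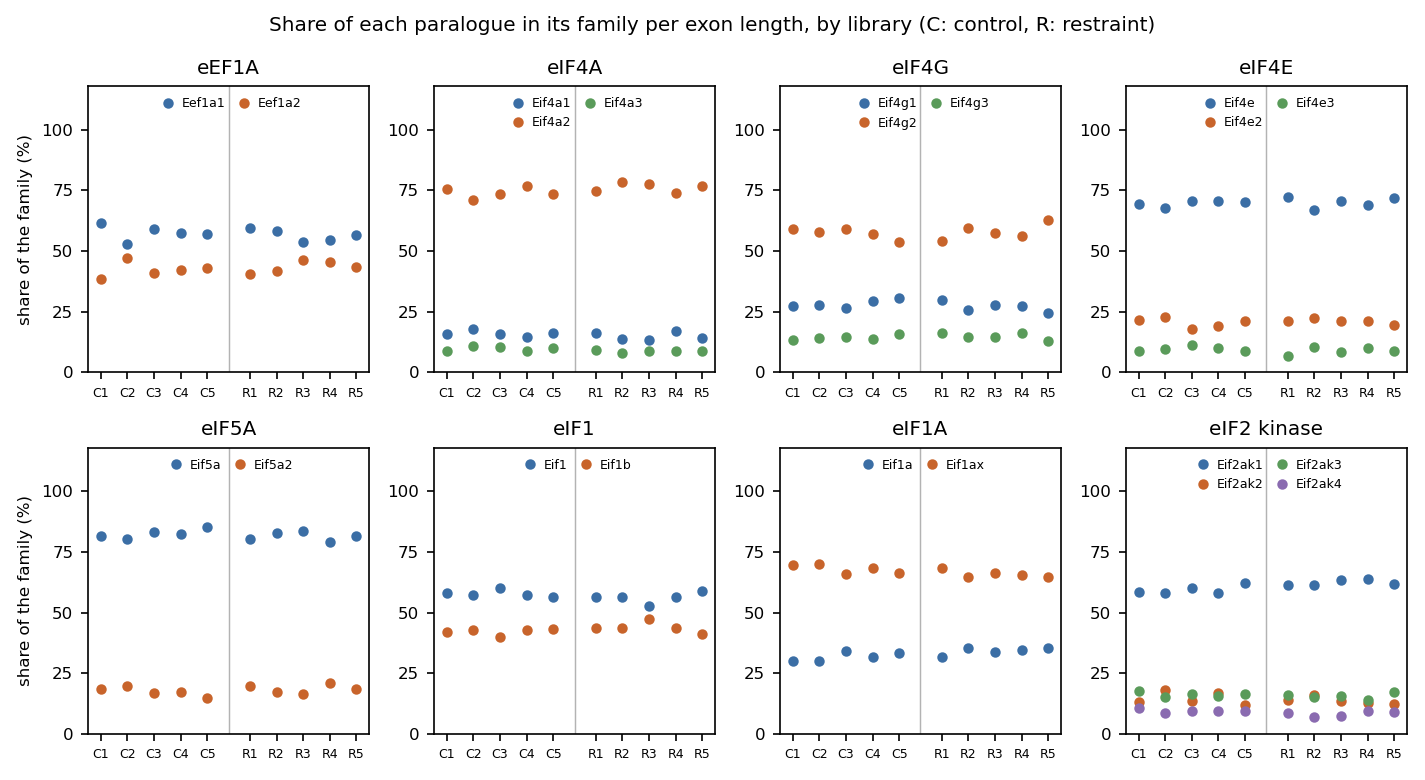
Share of each paralogue in its family, from CPM per exon length, in each of the 10 libraries (C, control; R, restraint). The leading gene is the same in all 10 libraries for each of the 8 families shown, for example Eif4a2 at 71.2 to 78.5% of the eIF4A genes. Reads that fit several genes were not counted, so shares in families that hold genes with copies, eIF4A among them, are uncertain.

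In the exchange complex of eEF1A, Eef1b2, the catalytic beta subunit (chromosome 1, 63215984 to 63219645), had 216, 159, 212, 206 and 206 CPM in controls and 167, 190.3, 152, 131 and 175 CPM after restraint. All 5 restraint libraries lay below the control median, and control 2 lay apart from the other controls, within the restraint range. The log2 difference was -0.29 ± 0.10 (adjusted p = 0.274, edgeR). The gene shares 7.31% of its exon bases with genes that overlap it, among them Ndufs1 on the opposite strand. Eef1d (0.07 ± 0.08) and Eef1g (0.03 ± 0.09), the other subunits, and Eef1e1 (-0.03 ± 0.10), a relative in the tRNA synthetase complex, did not pass. Eef2, the translocase, had 1524, 1894, 1525, 1608 and 1712 CPM in controls and 1519, 1513, 1446, 1489.8 and 1576 CPM after restraint. All but restraint 5 lay below every control, by little for restraint 1 and 2 (log2 -0.13 ± 0.07, adjusted p = 0.513, edgeR). Eef2k, the calcium-dependent kinase that inactivates eEF2, had 31.0, 30.3, 30.4, 26.7 and 25.3 CPM in controls and 26.8, 25.5, 25.8, 26.1 and 24.5 CPM after restraint (-0.16 ± 0.09). Its restraint values also lay below the control median in 5 of 5 libraries, and above the lowest control in 4 of 5.

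Eif5a encodes the hypusine-bearing factor that helps the ribosome through difficult stretches, and had 309, 303, 339, 345 and 349.8 CPM in controls and 274, 375, 341, 278 and 331 CPM after restraint. Its restraint libraries lay on both sides of the control range (-0.04 ± 0.09). The paralogue Eif5a2 stood at 147 ± 11.7 CPM without restraint and 153 ± 9.35 CPM with it (0.06 ± 0.08). Per exon length it made up 17.4 ± 1.86% of the pair in controls and 18.5 ± 1.77% after restraint. The methyltransferase genes of eEF1A and eEF2 gave -0.19 ± 0.11 for Eef1akmt1, 0.13 ± 0.11 for Eef1akmt2, -0.08 ± 0.18 for Eef2kmt and -0.66 ± 0.44 for Eef1akmt4. Eef1akmt4 was under 1 CPM in every library and shares 31.7% of its exon bases with other genes.

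Of the other genes of translation that were listed (mTORC1 and MNK kinases and their targets, poly(A)-binding protein and its partners, scanning helpers, eIF2 phosphatase subunits, termination and elongation regulators), 42 were measured. With edgeR 0 were lower and 0 higher at an adjusted p under 0.05, and 5 were lower (11.9%, against 6.04% of all genes tested) and 3 higher (7.14%, against 5.64%) at an unadjusted p under 0.05 (median -0.05). DESeq2 passed 0 of them. Of the 42, 1 gene, Impact, was lower without overlap between the groups, against 1.36% of all genes tested, and 0 were higher, against 1.25%. Impact encodes an inhibitor of GCN2 activation and was picked out after its values were seen. It had 1049, 1001, 1075, 1036 and 1008 CPM in controls and 952, 846, 919, 968 and 986 CPM after restraint (-0.15 ± 0.07, adjusted p = 0.396, edgeR). The 4 with the smallest p were Ppp1r15a, Dhps, Dph6 and Mcts1. Ppp1r15a, the stress-induced subunit of the eIF2 alpha phosphatase, had 13.5, 17.3, 15.2, 15.3 and 16.2 CPM in controls and 21.3, 21.2, 19.4, 18.4 and 17.0 CPM after restraint (0.33 ± 0.10, adjusted p = 0.212, edgeR). All but restraint 5 lay above every control. Dhps, which encodes the enzyme that starts hypusine formation on eIF5A, had 34.9, 33.3, 42.6, 37.6 and 37.5 CPM and 30.5, 32.4, 29.2, 29.8 and 34.7 CPM (-0.25 ± 0.09). Dph6, of the diphthamide pathway that modifies eEF2, had 18.8, 18.6, 18.9, 13.1 and 14.1 CPM and 15.2, 9.10, 11.9, 14.9 and 12.5 CPM (-0.39 ± 0.15), and Mcts1, a reinitiation factor gene, 61.4, 48.0, 75.2, 70.8 and 66.8 CPM and 50.5, 54.3, 50.8, 45.7 and 61.3 CPM (-0.29 ± 0.11). Each of these 3 was below its control median in 5 of 5 restraint libraries and overlapped the controls.

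Some factor mRNAs begin with a terminal oligopyrimidine tract and are translated together with ribosomal protein mRNAs under mTORC1. The 9 listed factor genes of this class (Eef1a1, Eef1b2, Eef1d, Eef1g, Eef2, Eif3e, Eif3f, Eif3h and Eif4b) had a median log2 difference of -0.13, 6 of them negative, with 1 lower at an unadjusted p under 0.05. Cytosolic ribosomal protein genes, 87 tested, had a median of -0.24, with 45 lower and 0 higher at that p, where 6.04% of all genes tested were lower and 5.64% higher. Past the adjusted threshold 1 of the 87 was lower with edgeR and 23 with DESeq2. Mitochondrial ones, 77 tested, had a median of -0.05, with 13 lower and 3 higher at the unadjusted p and 0 past the adjusted threshold with either tool. These values share their libraries, and the difference between the lists was not tested.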

How the data were processed

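Ribosome-bound RNA of 10 libraries, 5 controls and 5 after restraint, was analysed. The authors deposited whole-number counts per gene, made with featureCounts 2.0.3 on GENCODE M30 with no option for strand, read pairs or multi-mapped reads, per the file headers. FastQC, Trimmomatic and STAR and the build mm10 are named in the submitters' processing notes, without versions, whereas the coordinates in the deposited table are those of GRCm39. Reads that fit several genes were thus left out, and both mates of a pair could be counted.

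Counts were tested with edgeR 4.0.16 (R 4.3.3): filterByExpr (minimum count 10, total 15), TMM scaling, glmQLFit and glmQLFTest with group as the only term, and Benjamini-Hochberg adjustment over 18440 genes, with a threshold of 0.05. CPM values were computed from the deposited counts and TMM-scaled library sizes, and levels per kilobase use the deposited exon length. Gene symbols were matched for 52073 of 56691 genes. On simulated data with 18057 genes the test recovered 80% of genes changed 1.5-fold and 98% of those changed 2-fold, with 3.26% false calls. In that simulation 184 genes were called, against 4 in the deposited counts. The adjusted threshold is stricter where fewer genes are called, so recovery in the deposited counts can be lower. The simulated counts were drawn gene by gene, without an outlying library. No factor gene above 1 CPM had a fitted difference as large as 1.5-fold, and smaller changes were not simulated. Their recovery is therefore not known. The alternatives used DESeq2 1.42.0 and limma 3.58.1 (voom), other scalings and filters, halved counts, removal of a length trend (lowess, span 0.3), the replicate number as a block, and each library left out. Copies were counted as 50-base windows of the longest transcript found in other genes of GENCODE M21, and promoters came from RefSeq. No pair of libraries of the same group agreed within sampling noise, and pairs across the groups were not compared.

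The members and lists were chosen with earlier results of these data known, so no test was made over a list. Values per library are given for members past the threshold (none), the 12 with the smallest p and 21 chosen for their role, 28 genes in all, and of other translation genes for the 4 with the smallest p. Of the listed genes, 1 was not matched by symbol and is not analysed here.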

Additional observations from a re-analysis of the deposited data

Results flagged for a closer look

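In 4 of 68 groups of 5 libraries, the highest or lowest library stood far from the others of its group by Dixon's test, and chance alone gives about 1 in 20 such groups. Eef1a1 was lowest in restraint 4, at 1731 CPM. Eef1b2 was lowest in control 2, at 159 CPM. Eif4h was highest in restraint 5, at 664 CPM, and Eif6 was highest in control 3, at 41.0 CPM.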

How the results depend on the processing

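The median log2 difference of the factor genes stayed below 0 under every alternative run, and the count past the adjusted threshold stayed at 0 in each direction except with every gene of at least 1 count, where 1 gene, Eif6, passed as lower and 199 of all genes were lower and 103 higher, against 3 and 1 in the report's test. The count higher at an unadjusted p under 0.05, 1 in the report, was 0 with library size only, with at least 1 count, with a CPM of at least 1 in 5 libraries, with limma-voom, with halved counts, with the replicate block and with the replicate block and length trend removed together, and 2 with DESeq2 and with limma-voom with quality weights. The count lower, 8 in the report, was 13 with quality weights, 13 with the length trend removed and 4 without the genes that share over 20% of bases or windows, a setting chosen after seeing the data that leaves fewer genes. Shares of all genes at that unadjusted p are not given here for the alternatives, so these counts stand without them. With each library left out in turn, the count lower ran from 5 (without restraint 4) to 11 (without restraint 2), the count higher from 0 (without control 1, 3, 4 or 5 or restraint 3 or 5) to 2 (without control 2), and the median from -0.11 to -0.05. Eif4ebp1 turned negative with limma-voom (-0.11), quality weights (-0.22), the replicate block (-0.088) and the block with length trend removed (-0.075), and ranged from -0.33 to 0.31 over left-out libraries. Over left-out libraries the sign also turned for Eif2ak3 (-0.022 to 0.054), Eif5 (-0.012 to 0.056) and Eif5a (-0.112 to 0.0135). The cause of these moves was not tested. Libraries with the same replicate number did not deviate together (correlations -0.16 to 0.03, and 0 of 5 correlated best with its own number). These correlations cannot exclude a small shared effect, and the labels do not say whether the numbers pair the samples. The block is therefore an alternative only. Depth limits the scarce genes, such as Eef1akmt4 with 392 counts over all libraries.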
